A study of Saccharomyces cerevisiae with 25 samples.

Results

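Budding yeast was compared at 90 and 105 min after the cells were moved to medium without phosphate, with 1 library each, with the 1 library taken from high phosphate medium at 0 min. These are 3 of the 25 libraries of a time course in Saccharomyces cerevisiae sampled every 15 min for 360 min. They were chosen by their time labels, because the growth and stress genes, which moved strongly in the neighbouring libraries, stood near their 0 min level at both times. The strain is labelled as BY4741 background, a haploid laboratory strain, with the genotype pho84pr-YFP, delta-phm3. It therefore carries a yellow fluorescent protein gene under the PHO84 promoter, and every library, the one at 0 min included, carries the same label. The former name PHM3 belongs to VTC4, whose protein is the catalytic subunit of the polyphosphate polymerase in the vacuole membrane. The 0 min cells were in high phosphate, and the 90 and 105 min cells had been washed and moved, so that the wash, the new medium and the time in culture cannot be told apart from the lack of phosphate. No time point has a repeat, and the labels do not say that the time points came from separate cultures, so a p-value here reflects no more than how these libraries vary, which may be technical.

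Yeast cells read their phosphate supply through the PHO pathway. When phosphate is plentiful, the cyclin Pho80 and its kinase Pho85 phosphorylate the transcription factor Pho4 and keep it out of the nucleus. When phosphate is short, the inhibitor Pho81 blocks the kinase, and Pho4, together with Pho2, switches on genes for phosphate uptake, for phosphatases that free phosphate from organic compounds, and for the store of polyphosphate in the vacuole. A general stress response and a fall of the genes that make ribosomes are known to accompany slow growth of many kinds.

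VTC4, the gene labelled as deleted, stood at 7.92 log2 RPM at 0 min, 8.39 at 90 min and 8.08 at 105 min, from 354, 350 and 517 reads (log2 RPM is the deposited unit, log2 of the reads in each 1000000 listed reads). It was thus listed in the libraries labelled phm3_del at all 3 times, and the directions below belong to libraries under that label. Its difference from 0 min was 0.31, with a 95% interval from -0.14 to 0.76. Of the mating type markers, the a-pheromone gene MFA1 stood at 9.63, 9.95 and 10.22 log2 RPM, while the alpha-pheromone genes MF(ALPHA)1 and MF(ALPHA)2 were listed in none of the 3 libraries, and the other alpha markers STE3 and SAG1 had 31, 19 and 41 reads and 14, 12 and 17 reads. The libraries held 1462453, 1046751 and 1911639 reads, and the median tested gene lay within 0.07 (log2) of its 0 min level in both later libraries. Among the 852 genes with at least 200 reads in each of the 3, the SD of the log2 difference was 0.39 between 0 and 90 min, 0.32 between 0 and 105 min and 0.28 between 90 and 105 min. The counting error of the median gene was between 0.08 and 0.10. Both differences from 0 min share the single 0 min library, so any deviation of that library enters both.

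More of the genes that passed the test as higher than in high phosphate belonged to the PHO regulon than to any other list. Of 4925 genes listed in all 3 libraries, 28 were higher by limma (Benjamini-Hochberg adjusted p under 0.05), which is 0.569% of those tested, and 7 were lower (0.142%). With each library centred on the median of the tested genes, 9 were higher and 0 lower. With centring on the genes listed in all 25 libraries, 36 were higher and 14 lower. The PHO regulon list held 20 genes, of which 17 were listed in all 3 libraries, and 15 of the 17 passed as higher. With libraries centred on the genes listed in all 25, 15 passed as well, and 13 did with a pseudocount of 10 RPM. This count was 8 with libraries centred on the tested genes, 8 with at least 50 reads in each library, 4 without the variance trend, and 9 and 7 without the 90 and the 105 min library. All 17 stood above 0 min in both libraries, against 36.7% of all genes, and their median difference was 1.89 (log2) against 0.02 over all tested genes. By the rule of size, a difference past 2-fold in the same direction in both libraries, 24 genes were higher (0.487%) and 10 lower (0.203%), and 12 of the 24 were PHO regulon genes. An exact permutation test of 2 libraries against 1 cannot give a p below 0.333, so the calls rest on limma, where each gene has 1 residual degree of freedom and the spread comes mostly from a trend over all genes. SPL2, PHO11, PHO12 and VTC3 passed under the main setting and all 10 alternative settings, and PHO84, PHO5 and VTC1 in 9 of 10.

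**Figure D1:**
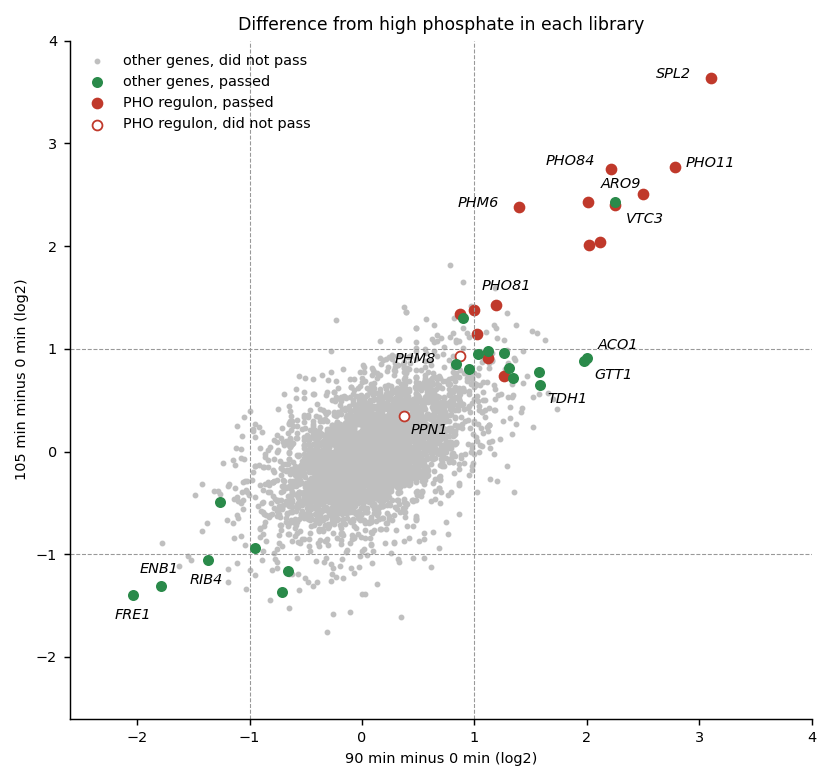
Each point is 1 of 4925 genes, with the log2 difference from 0 min at 90 min on the horizontal axis and at 105 min on the vertical axis. Dashed lines mark 2-fold. Filled red points are the 15 PHO regulon genes that passed, open red points the 2 that did not (PHM8 and PPN1), and green points the 13 higher and 7 lower genes outside the regulon. Most red points lie in the upper right, beyond 2-fold in both libraries.

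The largest difference belonged to SPL2 (chromosome VIII, 374654 to 375100, R64 build), whose protein inhibits low-affinity phosphate uptake. It stood at 5.47 log2 RPM at 0 min, 8.57 at 90 min and 9.11 at 105 min, from 65, 398 and 1058 reads. Both later values were far above the first. The difference was 3.37 (SE 0.24, limma adjusted p = 3.35e-17), or 10.3-fold. By counting error alone, the fold was between 6.57 and 11.3 at 90 min and between 9.69 and 16.3 at 105 min. SPL2 shares its upstream region with ARO9 (chromosome VIII, 375709 to 377250), the gene of an aromatic aminotransferase, which is transcribed in the opposite direction and is no member of the regulon list. ARO9 stood at 3.36, 5.61 and 5.79 log2 RPM, from 15, 51 and 106 reads. It too was higher in both later libraries, by 2.34 (SE 0.38, limma adjusted p = 2.86e-05), or 5.07-fold, the largest rise outside the regulon. With 15 reads at 0 min, counting error alone puts the ARO9 fold between 2.63 and 9.1 at 90 min, and it passed in 7 of 9 alternative settings. Of the 5 tested genes of aromatic amino acid breakdown, ARO9 alone passed, and the list's median was -0.09.

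The sequence between SPL2 and ARO9 is shown because 2 of the risers share it and because it holds more copies of the Pho4 core motif than the promoter of any other gene that passed. It spans 608 bases, chrVIII:375101-375708, and holds CACGTG 4 times, at 26, 85, 142 and 356 bases from the start of SPL2. The letters CACGTG read the same on both strands. Of these 4, the copies at 248 and 462 bases from the ARO9 start lie within 500 bases of ARO9. The first line below has the first 3 copies, next to SPL2 (chrVIII:375116-375415, plus strand), and the second has the fourth (chrVIII:375436-375481, plus strand). Sequences are from RefSeq's R64 assembly, read 5′ to 3′, and capitals mark the motif.
SPL2 side: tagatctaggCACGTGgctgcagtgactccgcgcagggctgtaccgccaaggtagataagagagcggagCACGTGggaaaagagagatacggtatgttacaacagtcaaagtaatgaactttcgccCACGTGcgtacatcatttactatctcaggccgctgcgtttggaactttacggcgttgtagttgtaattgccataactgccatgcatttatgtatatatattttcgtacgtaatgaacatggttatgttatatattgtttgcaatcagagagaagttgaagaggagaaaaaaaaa
ARO9 side: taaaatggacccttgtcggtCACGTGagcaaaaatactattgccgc

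In the 500 bases before the gene start, searched on both strands, CACGTG stood in 374 of the promoters of 6000 protein-coding genes (6.23%), and CACGTG or the related core CACGTT in 1260 (21.0%). Among the 28 genes that passed as higher, 19 had CACGTG and 21 had either. All 15 PHO regulon genes that passed had either motif, and 14 had CACGTG. Of the 13 higher genes outside the regulon, 5 had CACGTG, namely ARO9, MNN1, HMF1, TDH1 and IDH1, and SNZ1 had CACGTT. Of the 7 lower genes, 1 had CACGTG, OPI3. A PHO regulon list is partly defined by such motifs, so its share is a description, and a match of letters is not a bound site. The promoters of other risers with large differences follow for comparison, each with 20 bases on either side of its CACGTG copy or copies. PHO84, PHO11, PHO5 and PHO89 each have 1 CACGTT copy elsewhere in their 500 bases that is not printed. They are on the strand of the gene: PHO84 at chrXIII:26189-26256 (minus), VTC3 at chrXVI:517271-517383 (minus, with a CACGTT copy that reads AACGTG), PHO11 at chrI:225157-225202 (plus), PHO5 at chrII:431179-431224 (minus), VTC1 at chrV:302629-302674 (plus) and PHO89 at chrII:798820-798865 (minus).
PHO84: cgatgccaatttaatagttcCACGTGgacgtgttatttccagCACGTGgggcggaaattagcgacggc
VTC3: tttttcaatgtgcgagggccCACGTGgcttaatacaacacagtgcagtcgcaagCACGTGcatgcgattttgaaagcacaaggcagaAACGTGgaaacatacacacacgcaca
PHO11: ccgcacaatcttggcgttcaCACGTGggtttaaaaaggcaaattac
PHO5: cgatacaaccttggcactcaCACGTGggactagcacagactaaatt
VTC1: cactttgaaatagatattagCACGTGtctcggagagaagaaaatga
PHO89: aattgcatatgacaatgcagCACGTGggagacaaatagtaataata

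Phosphate transport genes were higher in both libraries. PHO84 (chromosome XIII, 24037 to 25800), the high-affinity proton-coupled phosphate transporter, stood at 6.79, 9.0 and 9.54 log2 RPM, from 162, 535 and 1428 reads. The difference was 2.48 (SE 0.23, limma adjusted p = 6.36e-13), or 5.58-fold. An annotated noncoding gene, YNCM0001W, overlaps PHO84, and whether reads were counted by strand is not given in the sources used here. PHO89, the sodium-coupled phosphate transporter, stood at 5.88, 7.89 and 8.31 log2 RPM. Its difference of 2.22 (SE 0.24, adjusted p = 2.7e-10 by limma) passed in 8 of 10 alternative settings. PHO86, an endoplasmic reticulum protein that Pho84 needs to leave that compartment, stood at 7.17, 8.04 and 8.51 log2 RPM. It rose less, by 1.10 (SE 0.23, adjusted p = 0.00418 by limma), and passed in 4 of 10 alternatives. GIT1, the transporter of glycerophosphoinositol, was not listed at 0 min and stood at 3.52 and 3.07 log2 RPM later, from 12 and 16 reads. It therefore lay at least 1.22-fold above the 10-read listing limit of the 0 min library, and it was not tested.

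**Figure D2:**
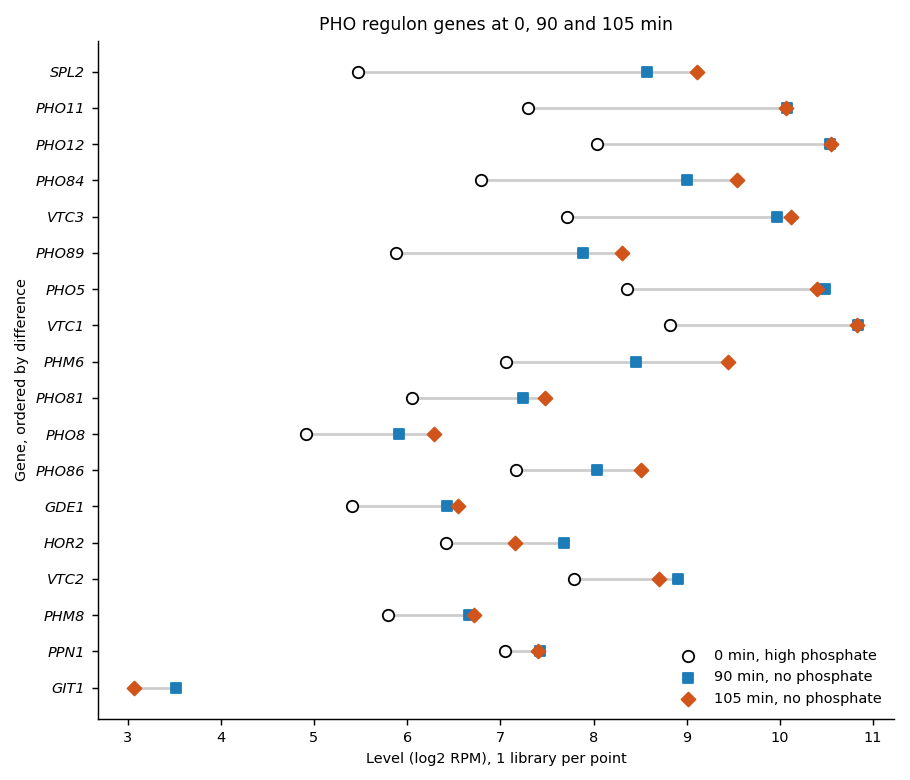
Levels of 18 PHO regulon genes in log2 RPM on the horizontal axis, 1 row per gene, ordered by their difference from 0 min. Open circles are 0 min, blue squares 90 min and orange diamonds 105 min, with 1 library per point. SPL2, PHO84 and PHM6 stood higher at 105 than at 90 min, while the points of PHO11, PHO12 and VTC1 nearly coincide. PPN1 has the shortest line, and GIT1 has no 0 min point because it was not listed there.

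All 4 phosphatase genes of the list rose. PHO5, the main repressible acid phosphatase secreted to the cell wall space, stood at 8.36, 10.48 and 10.40 log2 RPM. The difference was 2.08 (SE 0.21, limma adjusted p = 3.27e-11), or 4.24-fold. PHO11 and PHO12, 2 further secreted acid phosphatases, stood at 7.30, 10.08 and 10.07 log2 RPM and at 8.04, 10.54 and 10.55 log2 RPM. They rose by 2.77 and 2.50 (SE 0.21 each, adjusted p = 8.61e-16 and 4.03e-14 by limma). The reference copies of PHO11 and PHO12 differ at 4 of 1404 bases, and PHO5 and PHO11 are 83.6% identical. The values of PHO12 and PHO5 were fractions of reads in all 3 libraries, and those of PHO11 in 2 of 3, as they would be if shared reads were divided among similar genes, so the 3 rises may not be separate observations. PHO8, the vacuolar alkaline phosphatase, stood at 4.91, 5.91 and 6.29 log2 RPM, from 44, 63 and 150 reads. It rose by 1.19 (SE 0.31, limma adjusted p = 0.048), just inside the threshold, and passed in 2 of 9 alternatives. PHO3, a close relative of PHO5 that is not part of the regulon list, stood at 7.83, 6.94 and 8.02 log2 RPM, fractions of reads in all 3 libraries. The later values lay on opposite sides of the first, by -0.89 and 0.19, and the mean difference of -0.35 did not pass (SE 0.26, adjusted p = 0.964 by limma).

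The polyphosphate genes were split. VTC3 and VTC1, subunits of the vacuolar polyphosphate polymerase complex, stood at 7.72, 9.97 and 10.12 log2 RPM and at 8.82, 10.84 and 10.83 log2 RPM. They rose by 2.32 and 2.02 (SE 0.21 each, adjusted p = 6.36e-13 and 1.05e-10 by limma). VTC2, which takes the place of VTC3 in another form of the complex, stood at 7.79, 8.91 and 8.70 log2 RPM. It rose by 1.01 (SE 0.22, adjusted p = 0.00525 by limma) and passed in 3 of 10 alternatives. PPN1, an enzyme that cleaves polyphosphate, stood at 7.05, 7.42 and 7.40 log2 RPM. Its difference of 0.36 (adjusted p = 0.951 by limma) had a 95% interval from -0.12 to 0.84.

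The other 4 tested genes of the regulon, PHM6 and genes for the release of phosphate from lipids and small molecules, differed from 0 min by 0.90 to 1.89. PHM6, a gene of unknown function, stood at 7.06, 8.46 and 9.44 log2 RPM. It rose by 1.89 (SE 0.24, limma adjusted p = 7.82e-08), with the 105 min value well above the 90 min value. GDE1, which cleaves glycerophosphocholine, stood at 5.41, 6.43 and 6.55 log2 RPM, and HOR2, a glycerol-3-phosphate phosphatase, at 6.42, 7.68 and 7.16. Their rises were 1.08 and 1.01 (SE 0.28 and 0.25, adjusted p = 0.0481 and 0.0337 by limma), and they passed in 2 and 3 of 10 alternatives. PHM8, a phosphatase of nucleotides and lysophosphatidic acid, stood at 5.79, 6.66 and 6.72 log2 RPM. Both later values lay above the first, but the difference of 0.90 (SE 0.27) did not pass (adjusted p = 0.151 by limma), with a 95% interval from 0.35 to 1.44. The other 2 list members were not tested, as PHM7 was not listed in the 3 libraries and CTF19, which lies next to VTC3, was listed in none of the 25.

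Of the signalling genes, PHO81 passed and the others did not. PHO81, the inhibitor of the Pho80-Pho85 kinase and itself a target of Pho4, stood at 6.05, 7.24 and 7.48 log2 RPM. It rose by 1.31 (SE 0.25, adjusted p = 0.000945 by limma) and passed in 5 of 10 alternatives. Of the 13 other genes of the pathway, limma passed 0, and 4 were higher at an unadjusted p under 0.05, against 3.86% of all genes. PHO4 stood at 5.47, 5.14 and 5.79 log2 RPM, from 65, 37 and 106 reads. The later values lay on either side of the first, and the difference was -0.01, with a 95% interval from -0.68 to 0.66. The differences of PHO80 and PHO85, the cyclin and the kinase, were -0.37 (SE 0.47) and -0.14 (SE 0.35), and that of PHO2 was 0.11 (SE 0.49). VIP1, a kinase that makes inositol pyrophosphates, stood at 5.36, 6.52 and 6.32 log2 RPM. Its difference of 1.06 (SE 0.29) did not pass (adjusted p = 0.0664 by limma). IPK1, which makes the inositol hexakisphosphate that these kinases use, stood at 3.26, 4.69 and 4.24 log2 RPM from 14, 27 and 36 reads, and its difference of 1.20 (SE 0.49) did not pass either (adjusted p = 0.54 by limma). Among the other genes of inositol phosphates, KCS1, a further pyrophosphate kinase, differed by 0.46, ARG82, an inositol polyphosphate kinase, by 0.96, and DDP1 and SIW14, phosphatases of inositol pyrophosphates, by 0.77 and 0.31. None passed, with adjusted p = 0.908, 0.757, 0.344 and 0.978 by limma. The low-affinity transporter gene PHO87 and the vacuolar phosphate exporter gene PHO91 differed by 0.01 and 0.12 and did not pass. The low-affinity transporter gene PHO90 stood at 6.90, 7.06 and 6.51 log2 RPM. Its difference from 0 min was -0.12 (SE 0.26), while at 30 to 60 and 135 to 165 min it stood 1.46 and 1.35 below its 0 min level (differences of -1.46 and -1.35), and the 90 and 105 min level was higher than the mean of those groups by 1.28 (adjusted p = 0.00216 by limma).

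**Figure D3:**
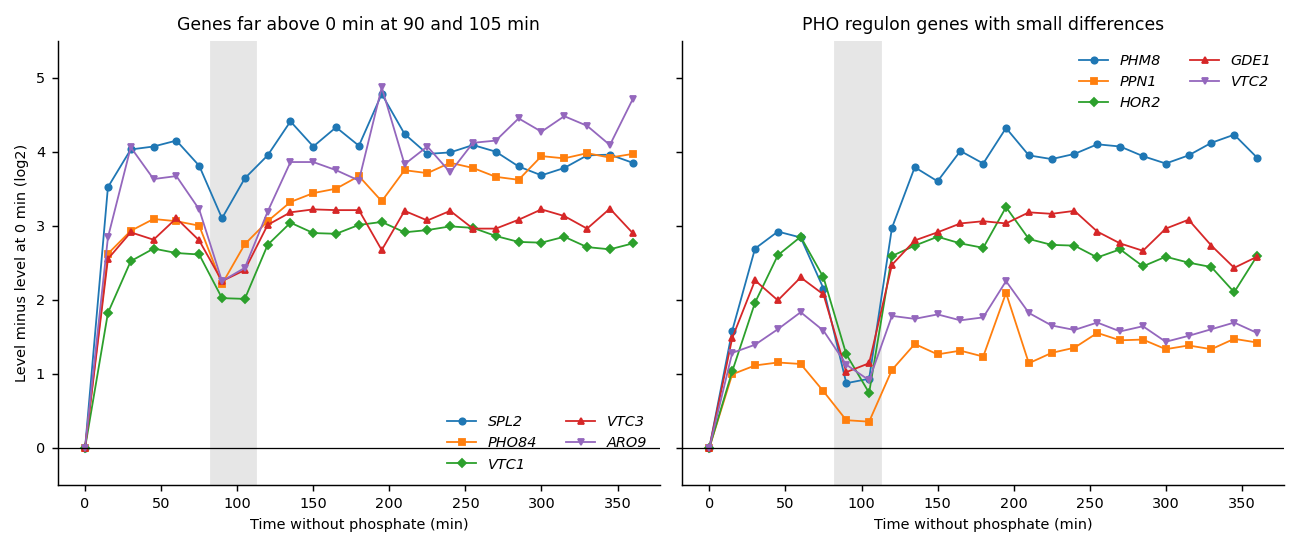
Level minus the level at 0 min (log2) against minutes without phosphate, 1 library per point, with 90 and 105 min shaded. The left panel shows SPL2, PHO84, VTC1, VTC3 and ARO9, and the right panel PHM8, PPN1, HOR2, GDE1 and VTC2. In both panels the shaded libraries dip, but the left genes stay about 2 or more above 0 while PHM8, HOR2, GDE1 and VTC2 lie near 1 and PPN1 near 0.36.

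Although above 0 min, the PHO regulon was lower at 90 and 105 min than in the libraries before and after. In a comparison with the mean of 30 to 60 min (3 libraries) and 135 to 165 min (3 libraries), which does not use the 0 min library, limma found 558 of 4774 genes higher (11.7%) and 1589 lower (33.3%). With libraries centred on the genes listed in all 25, these counts were 858 and 774, and the median of all genes was 0.00, against -0.36 without centring. Since the times were chosen for the return of the growth and stress genes, the counts over all genes partly restate that choice. Without centring, 135 of 137 ribosomal protein genes were higher and 43 of 44 general stress genes lower. All 18 tested PHO regulon genes were lower without centring, with a median of -1.14, and 10 of 18 with it. The smallest of these differences was that of PHO86, -0.59 (adjusted p = 0.00839 by limma), and the largest that of PHM8, -2.41 (adjusted p = 1.07e-06 by limma). PHM8 ranged from 8.48 to 8.71 log2 RPM at 30 to 60 min and from 9.39 to 9.80 at 135 to 165 min, against 6.66 and 6.72 at 90 and 105 min, so the groups did not overlap. For SPL2 the difference was -0.81 (adjusted p = 0.00201 by limma), from 9.50 to 9.62 and from 9.54 to 9.88 log2 RPM against 8.57 and 9.11. Of the 17 regulon genes with values at 0, 90 and 105 min, 13 had their lowest level without phosphate at 90 or 105 min, and all 17 stayed above 0 min in every library without phosphate in which they were listed. In bulk RNA, a lower level in every cell and a share of cells that had stopped responding cannot be told apart.

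**Figure D4:**
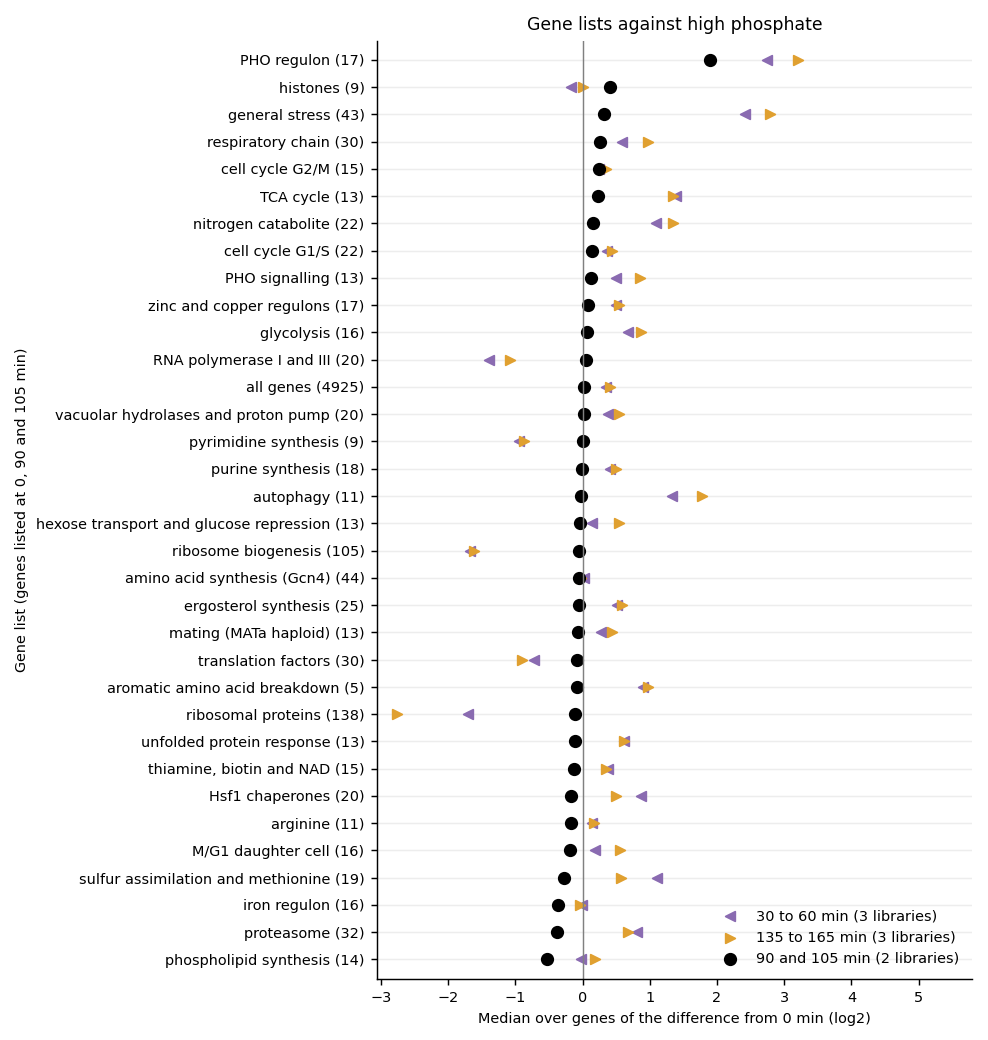
Median difference from 0 min (log2, horizontal axis) over the genes of each list that were listed at 0, 90 and 105 min (number in brackets). Black circles are 90 and 105 min, purple triangles 30 to 60 min and orange triangles 135 to 165 min. The MAT alpha and sporulation lists, with 2 and 1 such genes, and the parts of the PHO regulon are not drawn. Of the lists drawn, the PHO regulon alone has its black circle past 1, at 1.89, while the circles of the ribosomal protein and general stress lists lie at -0.11 and 0.32, far from their triangles.

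The growth and stress genes are given as a description, since the times were chosen for the return of these genes to near their 0 min level. Of 138 ribosomal protein genes, 1 passed as higher and 0 as lower, and their median difference from 0 min was -0.11, against -1.71 at 30 to 60 min and -2.76 at 135 to 165 min. RPS0B, for example, stood at 10.95, 11.01 and 11.09 log2 RPM. Of the 105 ribosome biogenesis genes tested, 0 passed as higher and 1 as lower, with a median of -0.05. Of 43 general stress genes, 0 passed by limma in either direction and 6 were higher at an unadjusted p under 0.05, against 3.86% of all genes. Their median was 0.32, against 2.42 and 2.79 in the libraries before and after, and 28 of 43 stood above 0 min in both libraries, against 36.7% of all genes. The stress genes were thus close to the 0 min level without all lying at it: HSP12, a membrane-protecting stress protein, stood at 9.35, 10.47 and 9.55 log2 RPM, and HSP26, a small heat shock protein, at 6.65, 7.24 and 6.67. Both were higher at 90 min than at 105 min.

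Outside the regulon, 13 genes passed as higher, among them enzymes of the tricarboxylic acid (TCA) cycle. ACO1, aconitase, stood at 7.10, 9.10 and 8.01 log2 RPM. It rose by 1.45 (SE 0.25, adjusted p = 0.000155 by limma), but by counting error alone its fold was 3.4 to 4.72 at 90 min and 1.59 to 2.22 at 105 min, so the 2 libraries differ. IDH1, a subunit of isocitrate dehydrogenase, stood at 5.18, 6.75 and 5.95 log2 RPM and rose by 1.17 (SE 0.31, adjusted p = 0.048 by limma). Its partner IDH2 differed by 0.90 (SE 0.28) and did not pass (adjusted p = 0.185 by limma). ACO1 passed in 3 and IDH1 in 2 of 10 alternatives. Of the 13 TCA cycle genes tested, 2 passed as higher, against 0.569% of all genes, and the list's median was 0.23. GTT1, a glutathione transferase, and TDH1, a glyceraldehyde-3-phosphate dehydrogenase, had the same shape, at 5.38, 7.35 and 6.26 log2 RPM and at 7.64, 9.22 and 8.29. They rose by 1.43 and 1.12 (SE 0.30 and 0.24, adjusted p = 0.00418 and 0.00525 by limma), each passed in 3 of 10 alternatives, and the values of TDH1 were fractions of reads.

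The 8 higher genes that remain rose by 0.85 to 1.11 and passed in 2 or 3 of 10 alternatives. CLB1, a B-type cyclin of mitosis, stood at 5.60, 6.50 and 6.90 log2 RPM and rose by 1.10 (SE 0.28, adjusted p = 0.035 by limma). It was the 1 gene that passed among 15 tested G2/M genes, whose median was 0.24, with 10 of 15 above 0 min in both libraries against 36.7% of all genes. SNZ1, of vitamin B6 synthesis, stood at 5.86, 7.17 and 6.67 log2 RPM and rose by 1.06 (SE 0.27, adjusted p = 0.0386 by limma). MNN1, a mannosyltransferase of the Golgi, rose by 1.11, CDA1, a chitin deacetylase of the spore wall, by 1.05, YNL208W by 1.03, HOR7, a gene responsive to high osmolarity, by 0.99, and HMF1 by 0.88. The ribosomal protein gene RPS22B stood at 8.99, 9.83 and 9.84 log2 RPM and rose by 0.85 (SE 0.21, adjusted p = 0.0337 by limma), the 1 gene of its list that passed. Its values were fractions of reads, and an annotated noncoding gene, YNCL0046W, overlaps it.

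Of the 7 genes that passed as lower, 2 belong to iron uptake. FRE1, a cell-surface reductase of iron and copper, stood at 6.22, 4.18 and 4.82 log2 RPM, from 109, 19 and 54 reads. Both later values lay below the first, by 1.72 in the mean (difference -1.72, SE 0.37, adjusted p = 0.00525 by limma). ENB1, a transporter of the iron chelator enterobactin, stood at 6.05, 4.26 and 4.74 log2 RPM, from 97, 20 and 51 reads, with a difference of -1.55 (SE 0.37, adjusted p = 0.0194 by limma). Of 16 tested iron regulon genes these 2 passed as lower, against 0.142% of all genes. In both libraries 10 of the 16 lay below 0 min, against 31.0% of all genes, and the list's median was -0.37. The 2 genes differed in their course: FRE1 was also at -2.04 and -1.81 from 0 min at 30 to 60 and 135 to 165 min, whereas ENB1 was at -0.37 and -0.05. In the separate list of zinc and copper regulons, FET4, a low-affinity iron transporter, stood at 5.26, 3.63 and 4.15 log2 RPM. CTR1, a copper transporter, stood at 5.45, 3.93 and 4.39. Both were past 2-fold downward in both libraries without passing the test. Where listed at 30 to 60 and 135 to 165 min, both also lay below 0 min. That list of 17 genes went both ways, with a median of 0.08. In both libraries 7 lay above 0 min and 6 below, against 36.7% and 31.0% of all genes. At an unadjusted p under 0.05 by limma, 4 were higher and 2 lower, against 3.86% and 2.23% of all genes. Its differences ran from -1.37 for FET4 to 1.15 for ZAP1, and none passed.

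RIB4, an enzyme of riboflavin synthesis, stood at 9.81, 8.44 and 8.75 log2 RPM, from 1309, 363 and 822 reads. It was lower in both later libraries, by a difference of -1.21 (SE 0.22, adjusted p = 0.000215 by limma), the lowest adjusted p among the genes that fell. DBP2, an RNA helicase, stood at 9.44, 8.73 and 8.07 log2 RPM, with a difference of -1.04 (SE 0.23, adjusted p = 0.00598 by limma). URA1, of pyrimidine synthesis, stood at 10.56, 9.30 and 10.07 log2 RPM, with a difference of -0.88 (SE 0.23, adjusted p = 0.048 by limma). DBP2 and URA1 were further below 0 min in the libraries before and after, at -3.18 and -1.94 at 30 to 60 min and -2.77 and -2.15 at 135 to 165 min. SSA2, a cytosolic Hsp70 chaperone whose values were fractions of reads, differed by -0.95 (SE 0.21, adjusted p = 0.00897 by limma). All 7 lower genes passed in 2 or 3 of the alternatives, and none did with each library centred on the median of the tested genes.

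Of all the lists, the phospholipid synthesis genes had the lowest median. OPI3, the methyltransferase of the last steps to phosphatidylcholine, stood at 8.24, 7.58 and 7.08 log2 RPM and fell (difference -0.91, SE 0.24, adjusted p = 0.0468 by limma). It was the 1 of 14 tested genes that passed, with 7 lower at an unadjusted p under 0.05, against 2.23% of all genes. The list's median was -0.53, and 11 of 14 genes lay below 0 min in both libraries against 31.0% of all genes. CHO1, phosphatidylserine synthase, stood at 8.39, 7.33 and 7.83 log2 RPM, CHO2, which carries out the first methylation, at 8.94, 8.06 and 8.35, and the inositol transporter gene ITR1 at 9.17, 8.30 and 8.56. Each lay below its 0 min level in both libraries, with differences of -0.81, -0.73 and -0.74, and none passed (adjusted p = 0.117, 0.142 and 0.13 by limma). At 30 to 60 and 135 to 165 min the list's medians were -0.02 and 0.18.

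Proteasome genes lay slightly lower, though none passed the test. Of 32 genes, 31 lay below 0 min in both libraries against 31.0% of all genes, with a median of -0.38 and a lowest difference of -0.81, and limma passed 0, with 13 lower at an unadjusted p under 0.05, against 2.23% of all genes. RPN1, a base subunit of the regulatory particle, stood at 7.80, 7.06 and 6.91 log2 RPM, and PUP3, a subunit of the core, at 7.89, 7.23 and 7.09. Against the libraries before and after, where the list's medians were 0.81 and 0.68 above 0 min, 31 of 32 genes were lower, against 33.3% of all genes. Because these genes share the 0 min library, a deviation of that 1 library cannot be told apart from a change at 90 and 105 min.

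Some genes were past 2-fold in both libraries without passing the test. Of the 24 genes past 2-fold upward in both libraries, 11 did not pass, and they had 11 to 30 reads at 0 min. Among them, chosen after their values were seen, DSN1, a kinetochore protein, stood at 4.04, 5.55 and 5.21 log2 RPM, and TEM1, a GTPase of mitotic exit, at 4.36, 5.46 and 5.52. Of the 10 downward, 7 did not pass, among them the choline kinase gene CKI1 at 4.94, 3.39 and 3.92 log2 RPM. Beyond these, 58 genes were listed at 90 and 105 min but not at 0 min, and 35 the other way round. The largest lower bound among the 58, again chosen after the values were seen, was that of DAL80, a repressor of nitrogen catabolite genes, which stood at 4.52 and 4.02 log2 RPM. The lower of these values is at least 2.37-fold above what 10 reads are worth in the 0 min library.

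The genes farthest from 0 min in the other lists did not pass, and their log2 differences from 0 min are given here as values. For the machinery of growth, the RNA polymerase genes RPC25 and RPA12 differed by 0.73 and -0.37, and the translation factor genes TEF4 and HYP2 by -0.36 and -0.34. In the lists above, the genes next to those named were IPI1 of ribosome biogenesis at -0.51, the ribosomal protein gene RPL15B at 0.53, and the stress genes HXK1 and TPS3 at 0.84 each. Protein folding genes included the Hsp90 gene HSC82 at -0.72, and LHS1 and JEM1 of the endoplasmic reticulum at 0.74 and -0.59. None of these passed. Cell cycle genes included the S-phase cyclin gene CLB6 at -0.88, the G1 cyclin gene PCL1 at 0.79, the histone genes HHF1 and HTA2 at 0.78 and 0.60, the G2/M gene YHP1 at 1.35, and the daughter cell genes PRY3 and SUN4 at -0.90 and -0.48. In carbon metabolism, the hexokinase gene HXK2 stood at -0.53, ICL1 of the glyoxylate cycle at -1.14, the invertase gene SUC2 at -0.69, and the respiratory genes QCR10 and QCR2 at 0.74 and 0.65. These 2 sets lay on both sides of 0 min. Amino acid genes included GLN1 and GDH1 at -0.75 and -0.63, ARG3 and ARG1 at -0.69 and -0.56, ARO80 at -0.29, and MMP1 and MET5 of the sulfur list at -0.92 and 0.73. Nucleotide, vitamin and sterol genes included IMD2 and MTD1 at -0.83 and 0.58, URA4 at -0.68, BIO2 and THI3 at -0.72 and -0.58, and ERG11 and ERG8 at -0.41 and -0.34. These are the members farthest from 0 min, and the medians of their lists were smaller. They were -0.01 for purine, 0.01 for pyrimidine, -0.05 for amino acid and -0.06 for ergosterol synthesis. The medians of the arginine, the sulfur, and the thiamine, biotin and NAD lists were -0.18, -0.28 and -0.13, against 0.02 over all tested genes. The nitrogen catabolite genes DUR3 and DAL1 stood at 1.05 and 1.03, the autophagy genes ATG19 and ATG17 at 0.97 and 0.69, and the vacuolar protease genes PEP4 and PRC1 at 0.37 and 0.25. The mating genes STE12 and STE6 stood at 0.56 and -0.53, and the 1 tested sporulation gene, NDT80, at 1.28.

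The 2 libraries were not identical to each other. Of the 852 well-covered genes, 3 lay past 2-fold between 90 and 105 min, against 17 between 0 and 90 min and 9 between 0 and 105 min. The histone genes had a median difference from 0 min of 0.77 at 90 min and 0.03 at 105 min, and the G2/M genes of 0.09 and 0.56. The median of the PHO regulon genes was 1.40 at 90 min and 2.01 at 105 min. None of these library values was tested.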

How the data were processed

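RNA of the 25 libraries was sequenced as cDNA on an Illumina HiSeq instrument, per the labels' protocols. The submitters' processing notes name Bowtie and the R64 build. Bowtie's version, the gene models, how reads were counted and any use of strand: not given in the sources used here. By their sums, what the authors deposited is log2 RPM, although the series text describes a normalization to the first time point. Low values step in whole reads: 94.1% to 94.3% of those at 0, 90 and 105 min were whole within 0.02 reads, and genes under 10 reads are not listed. Depth ran from 106672 to 1911639 reads (median 746657). Of 6701 rows, 51 were unnamed and empty and 2 with the same name were not used. Counting intervals are 95% exact binomial and, like listing limits, cover counting error only, since reads are not independent molecules.

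Values were fitted as deposited, with no pseudocount, by lmFit and eBayes of limma 3.58.1 (R 4.3.3) with a trend of the variance on the level, tested on simulated data, with Benjamini-Hochberg adjustment over all genes tested and a threshold of 0.05. Against 0 min, genes listed in all 3 libraries entered, and the single 0 min library is assumed to vary like the other 2. Against 30 to 60 and 135 to 165 min, genes listed in at least 2 libraries of each group entered. Named are the 20 largest rises and falls that passed and were past 2-fold in both libraries (13 and 3 qualified), all PHO regulon and signalling genes, VTC4, and the 2 largest differences of each of the other lists; further genes that passed, and further members of lists, were named after their values were seen. The lists and the comparison were chosen with earlier results of these data known. Coordinates are RefSeq's R64, to which 5944 of 6648 names matched; motifs were searched in Python 3.11.15. Alternatives changed the scaling, the filter, a pseudocount of 10 RPM, the trend, the source of the spread and the libraries used.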

Additional observations from a re-analysis of the deposited data

Results flagged for a closer look

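A difference between 90 and 105 min and the mean of 30 to 60 and 135 to 165 min was looked for in each gene that passed against 0 min and in the PHO regulon. It passed limma's adjusted threshold of 0.05 in the genes given here, as log2 differences. The comparison does not use the 0 min library, but it uses the same 90 and 105 min libraries in which the genes were called. Its differences are therefore not separate support for those calls. Over all 4774 genes tested, 11.7% were higher and 33.3% lower.

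Transport genes were lower at 90 and 105 min than in the libraries before and after by differences of -0.74 for PHO84, -0.90 for PHO89, -1.95 for GIT1, -0.59 for PHO86 and -0.81 for SPL2. Phosphatase genes had -1.38 for PHO5, -1.38 for PHO11, -1.50 for PHO12 and -1.59 for PHO8, the first 3 with fractional reads. Polyphosphate genes had -0.76 for VTC1, -0.67 for VTC2, -0.74 for VTC3 and -0.86 for PPN1. Among the other members the values were -2.41 for PHM8, -1.47 for GDE1, -1.62 for HOR2 and -1.58 for PHM6, and PHO81 had -0.72. These values are without centring, where the median of all genes was -0.36. With libraries centred on the genes listed in all 25, 10 of the 18 regulon genes were still lower, against 774 of all 4774 genes.

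Of the other genes that passed as higher against 0 min, ARO9 (-1.46), GTT1 (-1.57), TDH1 (-1.94), SNZ1 (-2.16), HOR7 (-1.96), YNL208W (-1.42), CDA1 (-1.29) and MNN1 (-0.90) were lower than before and after. RPS22B was higher (1.80), as were 135 of 137 ribosomal protein genes, whose median was 2.14. HMF1, CLB1, ACO1 and IDH1 did not pass.

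The genes that passed as lower against 0 min went both ways. OPI3 (-2.11), ENB1 (-1.34) and RIB4 (-0.87) were lower at 90 and 105 min than before and after, while DBP2 (1.94) and URA1 (1.16) were higher. FRE1 and SSA2 did not pass.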

How the results depend on the processing

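Against high phosphate, 28 genes were higher and 7 lower. With libraries centred on the tested genes these counts were 9 and 0, with at least 50 reads in all 3 libraries 8 and 0, without the variance trend 5 and 0, with the spread from neighbouring pairs of all 25 libraries 11 and 0, and with the spread from all groups 12 and 0. Centring on genes listed in all 25 libraries gave 36 higher, 15 of them PHO regulon genes, and 14 lower. Leaving out the 90 or the 105 min library, with the spread from neighbouring pairs and the lone library assumed to vary like the others, gave 9 and 7 higher and 0 lower. PHO regulon genes higher numbered 15, or 8 with centring on the tested genes, 8 with at least 50 reads, 4 without the trend, and 7 to 9 with a library left out. The rule of 2-fold in both libraries gave 24 higher and 10 lower, 11 and 1 with at least 50 reads, 11 and 3 with a pseudocount of 10 RPM, and 160 and 78 past 1.5-fold. Against the libraries before and after, 558 higher and 1589 lower became 858 and 770 with centring on the tested genes and 858 and 774 on the genes listed in all 25, with 10 of 18 regulon genes lower under each. Leaving out 1 library at a time gave 324 (without 90 min) to 626 (without 60 min) higher and 963 (without 105 min) to 1608 (without 60 min) lower, with 1035 lower without 90 min. The filter of 50 reads tests 2841 genes in place of 4925, and the cause of the other differences was not tested.

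Values near 0 changed sign. Against 0 min PHO4 was 0.00 with the pseudocount, and 0.32 and -0.33 without the 90 and the 105 min library. PHO2 was -0.05 without the 90 min library. PHO87 was -0.03 and -0.02 with either centring, and -0.02 and 0.04 without the 90 and the 105 min library, where PHO90 was -0.39 and 0.16. Against the libraries before and after, HMF1 was 0.03 and 0.03 and SSA2 0.12 and 0.11 with either centring, and CLB1 0.29 and 0.28. Without the 90 and the 105 min library CLB1 was 0.12 and -0.28, and FRE1 0.53 and -0.11. None of these passed. Of the medians of the lists, 0 moved with either centring. No paired analysis was possible because no time point has a repeat and the groups share no replicate from a common source.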
